A study of Mus musculus with 10 samples.

Results

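The transcripts of 9 mouse antioxidant enzyme genes were followed in whole ovaries: the superoxide dismutases Sod1, Sod2 and Sod3, catalase (Cat), and the glutathione peroxidases Gpx1, Gpx3, Gpx4, Gpx7 and Gpx8. They were taken by gene symbol from a table of 55487 genes, each of the 9 symbols matched 1 row, and all 9 passed the filter on low counts that left 18956 genes to test. Control ovaries (n = 4) came from mice aged 8 weeks, Aged ovaries (n = 3) from mice that the labels put at 11 months and the study's methods at another age, and Aged+CF ovaries (n = 3) from mice of that age that had received CEFFE, a cell-free protein extract of fat tissue, in doses of 200 μL at 3 μg/μL through the tail vein. Control and Aged mice had received saline in its place, according to the study's methods. By the labels all mice were on a C57BL/6J background and had been injected with 10 IU of PMSG, a gonadotropin that stimulates follicle growth, 48 h before collection. Each library was made from total RNA of whole ovary, and the labels give no animal behind each number, so p-values describe the spread between these ovaries. The study asked what ovarian age changes and whether the extract moves old ovaries towards young ones.

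Superoxide dismutases turn superoxide, a by-product of respiration and of oxidases, into hydrogen peroxide and oxygen. Sod1 works in the cytosol and Sod3 outside the cell, both with copper and zinc, and Sod2 works with manganese in the mitochondrial matrix. The peroxide is removed by catalase, a heme enzyme of peroxisomes, and by glutathione peroxidases, which spend glutathione. Gpx1 is the cytosolic and mitochondrial enzyme, Gpx3 is secreted, and Gpx4 reduces lipid hydroperoxides within membranes. These Gpx enzymes carry selenocysteine in the active site, whereas Gpx7 and Gpx8 of the endoplasmic reticulum carry cysteine. In the ovary, steroid-producing cells such as those of the corpus luteum are a known source of reactive oxygen.

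The bases around the catalytic codon separate these kinds of peroxidase in the transcripts themselves, and they also show how alike Gpx4 and its pseudogene Gpx4-ps2 are. Each run is 45 bases of the coding strand from GENCODE M21 transcripts (GRCm38), 5′ to 3′, with the catalytic codon, or its counterpart in the pseudogene, in capitals.
Gpx1: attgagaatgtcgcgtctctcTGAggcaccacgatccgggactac
Gpx3: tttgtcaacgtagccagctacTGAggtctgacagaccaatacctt
Gpx4: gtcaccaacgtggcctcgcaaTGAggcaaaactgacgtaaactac
Gpx7: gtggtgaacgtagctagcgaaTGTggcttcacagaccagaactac
Gpx8: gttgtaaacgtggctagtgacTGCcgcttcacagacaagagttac
Gpx4-ps2: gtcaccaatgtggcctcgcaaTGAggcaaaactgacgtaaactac
The codon is TGA, read as selenocysteine, in Gpx1, Gpx3 and Gpx4, and it is TGT in Gpx7 and TGC in Gpx8, both cysteine. The Gpx4-ps2 window matched that of Gpx4 at 44 of 45 bases, with the substitution C9T counted from the 5′ end of the window (Gpx4 base first). Over 733 aligned bases the pseudogene transcript was 99.7% identical to Gpx4, and Sod1 had a similar copy in Gm8566, with 97.8% identity over 465 bases.

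Gene counts summed to between 15761789 and 21318254 in an ovary, and levels of a gene are given as CPM, its count relative to the library size scaled by edgeR's TMM factors. The TMM factor was lowest in Aged replicate 33, at 0.871, and lay between 0.970 and 1.05 in the other ovaries. Markers of the labelled tissue were present, with summed oocyte markers at 66.7 to 564 CPM and summed granulosa cell markers at 2966 to 8179 CPM. Oviduct markers summed to 415 CPM in Control replicate 33 and 317 CPM in Aged replicate 34, against 4.44 to 36.1 CPM in the other 8 ovaries. Fewer cells of a type and less RNA per cell cannot be told apart in such whole-ovary libraries.

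In Aged ovaries 6 of the 9 genes rose and 1 fell relative to Control. Sod2, Sod3, Cat, Gpx1, Gpx3 and Gpx4 were higher, by 1.64-fold for Sod3 to 2.40-fold for Gpx1, and Gpx7 was 1.81-fold lower. Sod1 and Gpx8 did not pass. Here a call needs a difference of 1.5-fold or more together with an adjusted p (Benjamini-Hochberg, over all tested genes) below 0.05 in edgeR's quasi-likelihood F test of all 10 ovaries. By this rule 5.00% of all tested genes were higher and 6.06% lower in Aged. The median log2 fold change of the 9 genes was 1.01, against -0.001 over all tested genes. In 4 of the 9 genes (Sod3, Cat, Gpx1 and Gpx3) every Aged ovary lay above every Control ovary, as in 11.8% of tested genes, and in Gpx7 every Aged ovary lay below, as in 15.6%.

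**Figure D1:**
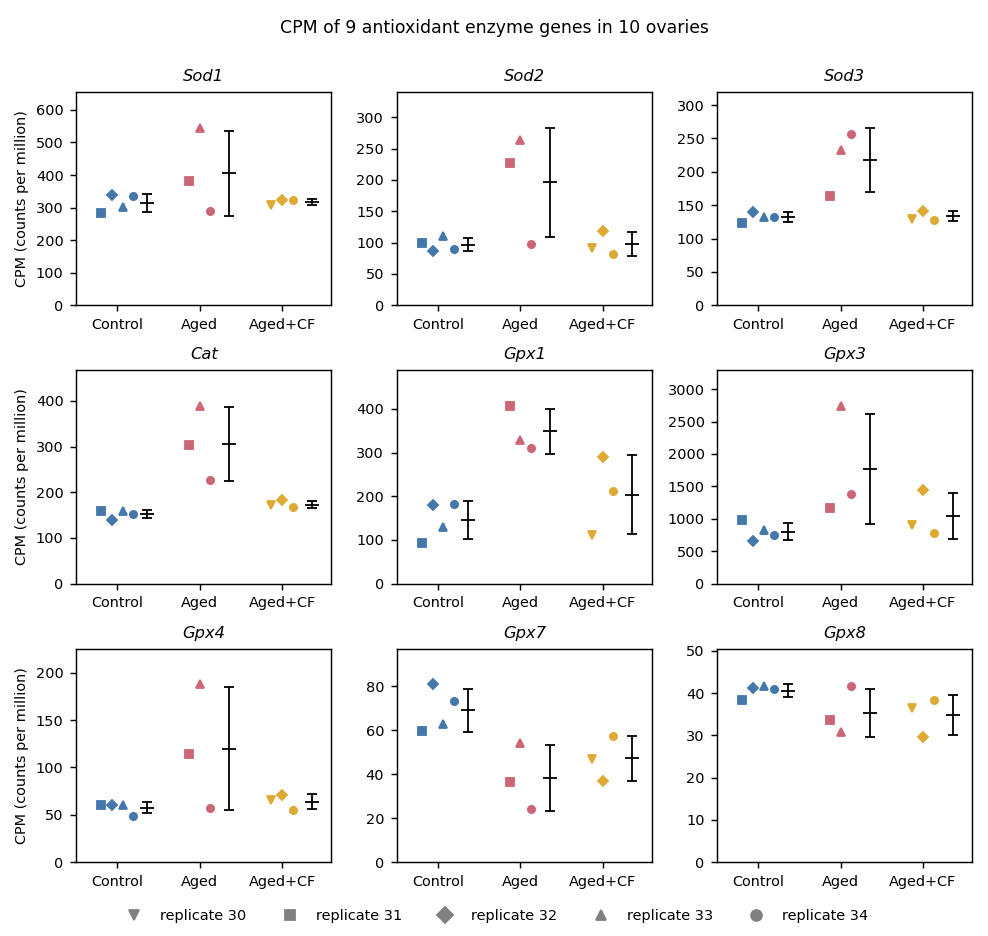
CPM of each gene (y axis, from 0, its own scale in each panel) in the Control, Aged and Aged+CF ovaries (x axis). Symbols mark the replicate number and are single ovaries, and the black bar with whiskers is the mean ± SD. Aged replicate 34 lies among the Control ovaries for Sod1, Sod2, Gpx4 and Gpx8, while all 3 Aged ovaries stand above Control for Sod3, Cat, Gpx1 and Gpx3.

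Gene positions are those of GENCODE M21 on GRCm38. Of the superoxide dismutases, mitochondrial Sod2 (ENSMUSG00000006818, chr17:13006846-13040063) had 98.5, 87.2, 111 and 89.8 CPM in Control replicates 31 to 34. It had 227, 264 and 97.7 CPM in Aged replicates 31, 33 and 34. So 2 Aged ovaries were far above Control and Aged replicate 34 was within its range. The log2 fold change was 1.02 (SE 0.28, edgeR adjusted p = 0.0365). Without Aged replicate 34 it was 1.38 (edgeR adjusted p = 0.00184), and without Aged replicate 33 it was 0.78 (edgeR adjusted p = 0.116).

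Sod3, the secreted dismutase (ENSMUSG00000072941, chr5:52363791-52371418), had 123, 140, 133 and 133 CPM in Control and 163, 233 and 256 CPM in Aged replicates 31, 33 and 34. Here Aged replicate 34 was the highest ovary of all, the reverse of its place for Sod2. The log2 fold change was 0.72 (SE 0.14, edgeR adjusted p = 0.0116). The fit by limma-voom with quality weights gave 0.43, under the 1.5-fold limit (limma adjusted p = 0.0252).

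Cytosolic Sod1 (ENSMUSG00000022982, chr16:90220754-90226329) had 283, 338, 301 and 335 CPM in Control and 381, 546 and 288 CPM in Aged. Aged replicates 31 and 33 exceeded all Control ovaries and replicate 34 did not. Its log2 fold change of 0.37 had a 95% interval of -0.04 to 0.77, so changes from none to 1.70-fold are within the error (edgeR adjusted p = 0.197). Without Aged replicate 34 it was 0.60 and passed (edgeR adjusted p = 0.0164).

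Among all 9 genes Cat (ENSMUSG00000027187, chr2:103453849-103485160) had the smallest p in this comparison. Control had 159, 140, 158 and 152 CPM and Aged 303, 389 and 226 CPM, with a clear gap between the groups. The log2 fold change was 1.01 (SE 0.15, edgeR adjusted p = 0.00575), with a 95% interval of 1.58-fold to 2.55-fold. Cat and Sod3 were called in all 10 fits that left out an ovary.

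Of the selenium-dependent peroxidases, Gpx1 (ENSMUSG00000063856, chr9:108338903-108340343) had 92.7, 179, 129 and 182 CPM in Control and 407, 330 and 310 CPM in Aged. The groups did not overlap, and its log2 fold change of 1.26 was the largest of the 9 (SE 0.31, edgeR adjusted p = 0.0261). Gpx3, the secreted enzyme (ENSMUSG00000018339, chr11:54902453-54910377), had 978, 658, 830 and 744 CPM in Control and 1170, 2742 and 1389 CPM in Aged. Its log2 fold change was 1.14 (SE 0.31, edgeR adjusted p = 0.0357), but 0.70 without Aged replicate 33 (edgeR adjusted p = 0.102), the ovary with by far the highest level.

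Gpx4, which protects membrane lipids (ENSMUSG00000075706, chr10:80047166-80056439), had 60.0, 60.8, 60.4 and 49.1 CPM in Control and 114, 188 and 57.3 CPM in Aged. As with Sod2, Aged replicate 34 was at the level of Control. The log2 fold change was 1.06 (SE 0.30, edgeR adjusted p = 0.0432), 1.43 without Aged replicate 34 and 0.61 without Aged replicate 33 (edgeR adjusted p = 0.00247 and 0.136). In every ovary the table gave more reads to the pseudogene Gpx4-ps2 (ENSMUSG00000110841, chr10:45875291-45876086) than to Gpx4, with 2.76 to 3.26 counts on Gpx4-ps2 for each count on Gpx4. The authors' handling of reads that match both is not given in the sources used here, so the level of Gpx4 is uncertain and the origin of these reads cannot be told apart. Gpx4-ps2 had 153 to 176 CPM in Control and 331, 579 and 161 CPM in Aged, and its log2 fold change was 1.10 (SE 0.32, edgeR adjusted p = 0.0436). With both rows added together the log2 fold change of Gpx4 was 1.09 (edgeR adjusted p = 0.0435).

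**Figure D2:**
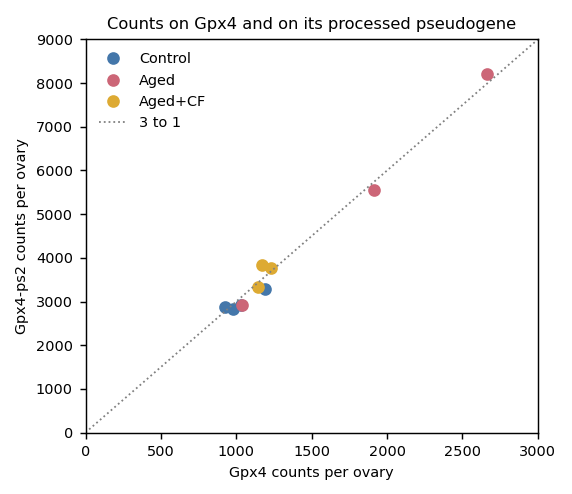
Deposited counts on Gpx4-ps2 (y axis) against those on Gpx4 (x axis), 1 point per ovary, coloured by group. The dotted line marks 3 counts to 1. All 10 ovaries lie near it, at ratios of 2.76 to 3.26, and Aged replicates 31 and 33 are the 2 points with the most counts on both genes.

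The endoplasmic reticulum peroxidases did not rise. Gpx7 (ENSMUSG00000028597, chr4:108400390-108406961) had 59.7, 80.9, 62.6 and 73.3 CPM in Control and 36.6, 54.2 and 23.9 CPM in Aged, with no overlap. Its log2 fold change was -0.86 (SE 0.26, edgeR adjusted p = 0.0495), just past the threshold, and -0.57 without Aged replicate 34 (edgeR adjusted p = 0.0828). Gpx8 (ENSMUSG00000021760, chr13:113042753-113046410) had 38.4, 41.3, 41.8 and 41.0 CPM in Control and 33.7, 30.7 and 41.7 CPM in Aged. Its log2 fold change of -0.20 had a 95% interval of -0.49 to 0.09 (edgeR adjusted p = 0.325). Gpx8 overlaps Cdc20b and Sod1 overlaps Scaf4 on the opposite strand, with 0 exon bases shared in either pair. Gpx2 and Gpx6 had at most 20 and 10 counts in any ovary and did not pass the filter, and Gpx5 had 0 counts in all 10.

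The count of 7 called genes depended on the ovaries in the fit. It was 2 without Control replicate 31 or Control replicate 33, and 3 without Control replicate 32, Control replicate 34, Aged replicate 31 or Aged+CF replicate 30. Of all tested genes 8.54% and 8.32% were called in the first pair of these fits, and 5.74%, 5.80%, 8.92% and 8.69% in the next ones, against 11.1% with all 10 ovaries. It was 4 without Aged replicate 33 (9.09% of all tested genes), 5 without Aged+CF replicate 32 or Aged+CF replicate 34 (9.77% and 8.94%), and 7 without Aged replicate 34 (16.1%), where Sod1 was called and Gpx7 was not. Gpx1 was called in 7 of these 10 fits, Gpx3 in 4, Sod2 in 3, and Gpx4 and Gpx7 in 1 each. No sign changed in any of them for any of the 9 genes in Aged vs Control.

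In Aged+CF ovaries the fitted levels of the 6 genes called higher in Aged were below those of Aged, by 1.63-fold for Sod3 to 2.02-fold for Sod2, but none of the 9 passed the adjusted p in edgeR. Of all tested genes 0.00528% were called, which is 1 gene. At an unadjusted p under 0.05 with the same fold, all 6 were lower in Aged+CF and 0 of the 9 higher, against 4.05% and 3.91% of tested genes. By the adjusted p, the DESeq2 Wald test called 3 of the 9 (Sod2, Sod3 and Cat) and 2.83% of all genes with an adjusted p, and limma-voom called 2 (Sod2 and Cat) and 0.464% of all tested genes. This comparison uses the same Aged ovaries as Aged vs Control, so a high or low Aged ovary moves both in opposite directions.

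**Figure D3:**
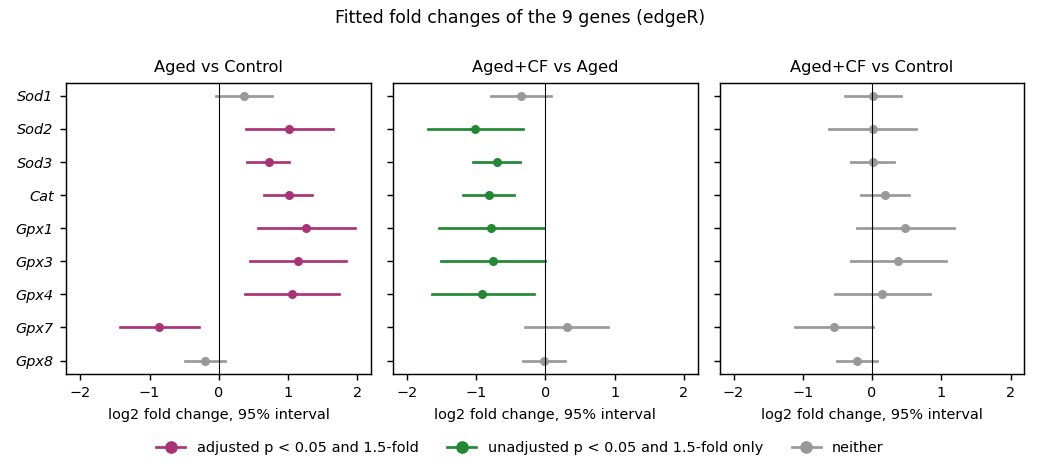
Fitted log2 fold changes (x axis) of the 9 genes (y axis) in 3 comparisons, as points with 95% intervals, coloured by the call they passed. In Aged vs Control 6 points are coloured to the right and Gpx7 to the left, in Aged+CF vs Aged 6 points pass by the unadjusted p alone, and in Aged+CF vs Control all 9 intervals include 0.

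Cat had 171, 182 and 167 CPM in Aged+CF replicates 30, 32 and 34, below the lowest Aged ovary at 226 CPM. Its log2 fold change against Aged was -0.82 (SE 0.17, edgeR adjusted p = 0.150). Sod3 had 130, 142 and 128 CPM in Aged+CF, again below all Aged ovaries, at a log2 fold change of -0.70 (SE 0.15, edgeR adjusted p = 0.151). The spread over Aged+CF ovaries was below that over Aged ovaries, with an SD of 7.35 CPM against 81.6 CPM for Cat and 7.12 CPM against 48.4 CPM for Sod3.

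Sod2 had 91.6, 118 and 81.7 CPM in Aged+CF, which overlapped with Aged only through Aged replicate 34 at 97.7 CPM. The log2 fold change was -1.01 (SE 0.30, edgeR adjusted p = 0.187). Sod1 had 308, 322 and 322 CPM in Aged+CF and a log2 fold change of -0.35 with a 95% interval of -0.79 to 0.08 (edgeR adjusted p = 0.388). Without Aged replicate 34, Sod2, Cat and Gpx4 were called, with log2 fold changes of -1.35, -1.01 and -1.26 (edgeR adjusted p = 0.0115, 0.0115 and 0.0230). Without Aged replicate 31, Sod3 was called.

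Of the selenium-dependent peroxidases in Aged+CF, Gpx1 had 111, 289 and 211 CPM, the first within the Control range and the second close to the lowest Aged ovary at 310 CPM. Gpx3 had 909, 1447 and 775 CPM, so Aged+CF replicate 32 exceeded 2 of the 3 Aged ovaries. Gpx4 had 65.8, 70.7 and 55.0 CPM, of which the last was below every Aged ovary. The log2 fold changes against Aged were -0.78 for Gpx1 (SE 0.34), -0.76 for Gpx3 (SE 0.34) and -0.91 for Gpx4 (SE 0.33), with edgeR adjusted p = 0.296, 0.301 and 0.235. Without Aged replicate 33 that of Gpx3 was -0.29 and that of Gpx4 -0.43.

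Gpx7 had 47.1, 36.9 and 57.5 CPM in Aged+CF, overlapping with Aged, at a log2 fold change of 0.31 with a 95% interval of -0.29 to 0.91 (edgeR adjusted p = 0.595). Gpx8 had 36.4, 29.6 and 38.5 CPM and a log2 fold change of -0.02, with a 95% interval of -0.33 to 0.28 (edgeR adjusted p = 0.953). Of the 9 genes, Sod3, Cat and Gpx1 had every Aged+CF ovary below every Aged ovary, as 8.39% of tested genes did, and 0 had every Aged+CF ovary above, as 10.2% did.

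Against Control, 0 of the 9 genes passed in Aged+CF ovaries by either p in edgeR, nor by the DESeq2 Wald test or limma-voom, which called 2.79% and 2.68% of all genes. In edgeR 0.179% of all tested genes passed the adjusted p, and 3.33% were higher and 4.36% lower by the unadjusted p. The dismutases were closest to Control, with log2 fold changes of 0.01 for each of Sod1, Sod2 and Sod3. Their 95% intervals were -0.39 to 0.42, -0.62 to 0.64 and -0.30 to 0.32, so a change of up to 1.56-fold in Sod2 is within the error. Gpx1, Gpx3 and Gpx4 had log2 fold changes of 0.48, 0.38 and 0.15, with upper bounds of 2.27-fold, 2.1-fold and 1.78-fold. Gpx8 was at -0.22 (95% interval -0.51 to 0.07).

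In Aged+CF 1 of the 9 genes, Cat, lay above every Control ovary and 1, Gpx7, below. This is near the share of all tested genes, and neither gene was called. All 3 Aged+CF ovaries had more Cat than the highest Control ovary, at 159 CPM, which 9.69% of tested genes shared, with a log2 fold change of 0.19 (SE 0.15, edgeR adjusted p = 0.615). All 3 had less Gpx7 than the lowest Control ovary, at 59.7 CPM, which 12.2% of tested genes shared, with a log2 fold change of -0.55 (SE 0.25, edgeR adjusted p = 0.362). Single Aged+CF ovaries differed in how many of the 9 genes exceeded all Control ovaries. In replicate 32 these were 6 (Sod2, Sod3, Cat, Gpx1, Gpx3 and Gpx4), in replicate 30 Cat and Gpx4, and in replicate 34 Cat and Gpx1. In Aged replicates 31 and 33 they were 7, and in Aged replicate 34 they were Sod3, Cat, Gpx1 and Gpx3. Below all Control ovaries were Gpx7 in every Aged and Aged+CF ovary and Sod2 in Aged+CF replicate 34. Gpx8 was also below in Aged replicates 31 and 33 and Aged+CF replicates 30 and 32. The share of all tested genes outside the Control range was not computed for single ovaries, so these numbers are description only.

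Summed levels of several cell type markers differed between the same groups. How far each marker is confined to the cell type it is listed under was not tested. All 10 luteal cell markers were called higher in Aged, and their summed level was 7500 to 14499 CPM in Control, 19682 to 47949 CPM in Aged and 17722 to 27737 CPM in Aged+CF. The luteal sum was highest in Aged replicate 33, then Aged replicate 31, then Aged+CF replicate 32, the ovaries that were also highest for Sod2 and Gpx4. The other genes called higher had other orders. For Sod3, Cat and Gpx1 Aged replicate 34 exceeded Aged+CF replicate 32, and for Gpx3 Aged+CF replicate 32 exceeded Aged replicate 31. The endothelial and erythroid marker sums were also highest in Aged replicate 33, then Aged replicate 31. Of 12 oocyte markers 10 were called lower in Aged (429 to 564 CPM in Control, 66.7 to 152 CPM in Aged and 207 to 293 CPM in Aged+CF). Of 10 macrophage markers 4 were called higher, at 588 to 691, 1021 to 2223 and 906 to 1037 CPM, with the highest sum in Aged replicate 34, which was also highest for Sod3. That ovary also had the highest sums of stroma, smooth muscle, B and plasma cell, T and NK cell, adipocyte and surface epithelium markers.

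Of 6 endothelial markers 4 were called higher in Aged, with sums of 366 to 455, 535 to 698 and 467 to 502 CPM in Control, Aged and Aged+CF. All 5 tested erythroid markers were called higher (71.8 to 112, 265 to 638 and 109 to 260 CPM). B and plasma cell markers summed to 3.76 to 5.68 CPM in Control and 7.05, 22.1 and 178 CPM in Aged, with 3 of 5 tested called, and T and NK cell markers to 3.19 to 5.43 and 10.3 to 22.7 CPM, with 3 of 4 called. Of 5 theca markers 2 were called lower, and edgeR called 0 of 10 granulosa markers (5 lower by the unadjusted p, and 3 lower each by DESeq2 and limma-voom). It called 0 stroma, smooth muscle, adipocyte, surface epithelium and oviduct markers (0 by the unadjusted p and by DESeq2), and limma-voom called 1 stroma and 1 smooth muscle marker lower. In Aged+CF vs Aged 0 markers passed the adjusted p in edgeR, while by the unadjusted p 17 were lower and 6 higher, and by the adjusted p DESeq2 called 8 lower and 2 higher and limma-voom 0. The part of any of these cell types in the changes of the 9 genes was not tested.

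**Figure D4:**
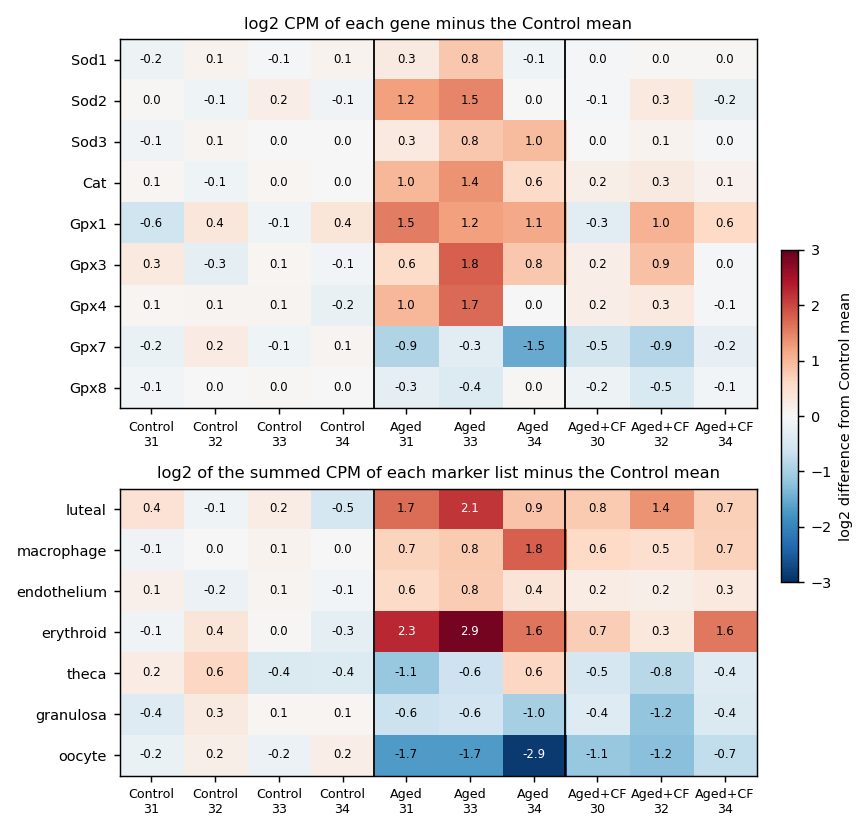
Upper panel: log2 CPM of each gene in each ovary minus its Control mean. Lower panel: the same for the log2 of the summed CPM of 7 marker lists. Columns are ovaries, red is above and blue below the Control mean, and the printed values are log2 differences. The luteal row is red in all Aged and Aged+CF ovaries and deepest in Aged replicate 33 (47949 CPM), where Gpx3 and Gpx4 are deepest too, and the macrophage row is deepest in Aged replicate 34 (2223 CPM). The endothelium and erythroid rows are also deepest in Aged replicate 33.

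Levels of different genes can be set side by side only per length, as FPKM. On this scale Gpx3 was the most abundant of the 9 in every ovary, with 350 ± 62.2 FPKM in Control, 690 ± 279 FPKM in Aged and 443 ± 147 FPKM in Aged+CF (SD, n = 4, 3 and 3). In counts, which are not corrected for gene length, it took 64.5% to 82.0% of those on the 5 peroxidases and 0.0670% to 0.239% of each library. Counts on Gpx4-ps2, 2.76 to 3.26 for each count on Gpx4, are left out of this share and of the levels of Gpx4. The share of Gpx3 and the place of Gpx4 in the orders of all 3 groups are therefore uncertain. In Control, Sod1 (75.3 ± 5.77 FPKM), Cat (50.2 ± 3.39 FPKM), Gpx1 (44.0 ± 12.7 FPKM) and Gpx7 (44.0 ± 5.75 FPKM) followed. Then came Sod3 (36.6 ± 1.76 FPKM), Gpx8 (23.2 ± 0.904 FPKM), Gpx4 (21.2 ± 2.1 FPKM) and Sod2 (7.76 ± 0.940 FPKM). Neighbours in this order had overlapping ovaries for Cat and Gpx1, Gpx1 and Gpx7, and Gpx8 and Gpx4.

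In Aged the order was Gpx3, Gpx1, Cat, Sod1, Sod3, Gpx4, Gpx7, Gpx8 and Sod2, and all neighbours except Gpx3 and Gpx1 overlapped. Gpx1 was at 96.8 ± 16.6 FPKM, Cat at 91.1 ± 18.1 FPKM and Gpx7 at 21.9 ± 7.16 FPKM. In Aged+CF it was Gpx3, Sod1, Gpx1, Cat, Sod3, Gpx7, Gpx4, Gpx8 and Sod2. The order depended on the length used, since the deposited FPKM rest on the sum of all distinct exons of a gene, which counts overlapping stretches more than once. Per base of the first annotated transcript, which is 641 bases for Sod1 against 4313 behind its FPKM, Sod1 in Control was at 506 ± 38.8 FPKM and overlapped with Gpx3 at 521 ± 92.5 FPKM. On that scale and per base of the exon union (3970 bases for Sod1), Gpx3 still had the highest mean in each group. The share of dismutase counts on Sod1, not corrected for gene length, was 55.2% to 60.0% in Control, 44.9% to 52.3% in Aged and 55.3% to 60.5% in Aged+CF.

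Other genes around these enzymes moved in part with them. In the lists of this section, written from general knowledge, counts are of genes called by the adjusted p in Aged vs Control, to be read against 5.00% of all tested genes higher and 6.06% lower. Of 7 genes of copper delivery to the dismutases, 1 rose and 0 fell. It was Slc31a2, a copper transporter (22.1 ± 2.1 CPM in Control and 36.8 ± 4.46 CPM in Aged, log2 fold change 0.74). Of 11 genes of selenium handling 1 rose, Scly, which frees selenium from selenocysteine (8.68 ± 1.38 and 20.1 ± 2.30 CPM, log2 fold change 1.21). Of 16 tested other selenoproteins 2 rose, both of the endoplasmic reticulum: Selenos (50.1 ± 0.923 and 80.5 ± 15.8 CPM) and Selenok (62.0 ± 8.05 and 93.1 ± 25.3 CPM). The medians of the 3 lists were 0.54, 0.09 and 0.20 on the log2 scale.

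Of 17 peroxiredoxin and thioredoxin genes 4 rose and 0 fell, with a median of 0.38. Prdx1, a cytosolic peroxiredoxin, rose from 400 ± 28.8 to 779 ± 307 CPM. Prdx3, the mitochondrial one, rose from 170 ± 16.7 to 305 ± 114 CPM. Srxn1, which repairs overoxidised peroxiredoxins, rose from 36.3 ± 6.01 to 76.9 ± 21.4 CPM, with log2 fold changes of 0.96, 0.84 and 1.08 for the 3 genes.

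Of 20 tested genes of glutathione synthesis and recycling 3 rose and 2 fell, with a median of 0.25. Among those that rose were Me1 (744 ± 58.2 to 1833 ± 494 CPM, log2 fold change 1.30) and Idh1 (730 ± 185 to 1666 ± 587 CPM, 1.19). The transcript level of Nnt fell from 124 ± 18.5 to 66.8 ± 5.46 CPM and was lower in Aged+CF too, at 52.5 ± 12.9 CPM. Its log2 fold changes against Control were -0.90 and -1.24 (edgeR adjusted p = 0.0125 and 0.0326). Whether a working Nnt enzyme is made in these mice was not tested. Of 22 NRF2 targets 4 rose and 0 fell (median 0.24), and Prdx1, Srxn1 and Me1 are members of this list and of the earlier ones. The one not yet named was Taldo1, of the pentose phosphate pathway (122 ± 1.37 to 240 ± 55.3 CPM, log2 fold change 0.98).

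Of 19 tested sources of superoxide and peroxide 5 rose and 0 fell, with a median of 0.42. They included Hao2, a peroxisomal hydroxyacid oxidase (72.2 ± 6.18 to 193 ± 37.7 CPM, log2 fold change 1.42), Maob, a mitochondrial amine oxidase (7.95 ± 1.34 to 21.3 ± 7.55 CPM, 1.42), and Ncf4, a subunit of the phagocyte NADPH oxidase (2.40 ± 0.615 to 6.36 ± 3.52 CPM, 1.41). Hao2 was at 117 ± 7.34 CPM in Aged+CF (log2 fold change against Aged -0.72, edgeR adjusted p = 0.150). Catalase sits in peroxisomes, and of 30 tested peroxisomal enzymes and transporters 7 rose and 1 fell (median 0.22). Among them were the fatty acid oxidase Acox3 (62.3 ± 12.4 to 136 ± 59.1 CPM, 1.13) and the epoxide hydrolase Ephx2 (626 ± 154 to 1278 ± 496 CPM, 1.03), while the transporter Abcd2 fell from 23.9 ± 2.74 to 11.1 ± 3.07 CPM (-1.11). Of 16 peroxisome assembly genes edgeR called 0 (1 by the unadjusted p, 3 by DESeq2 and 2 by limma-voom), and of 22 mitochondrial housekeeping genes 0 (0 by the unadjusted p, 1 by DESeq2 and 0 by limma-voom), with medians of 0.30 and 0.21.

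Of 17 genes of lipid peroxidation and ferroptosis 3 rose and 1 fell, with a median of 0.51. Alox12, a lipoxygenase that forms lipid hydroperoxides, rose from 8.21 ± 0.551 to 17.2 ± 7.06 CPM (log2 fold change 1.06). Fth1, the ferritin heavy chain, rose from 456 ± 45.2 to 817 ± 215 CPM (0.84). Mboat2, a phospholipid acyltransferase, fell from 115 ± 15 to 51.9 ± 1.17 CPM (-1.15). Of 18 regulators of antioxidant genes 1 was called, Foxo1, a transcription factor abundant in granulosa cells, which fell from 625 ± 38.4 to 270 ± 82.4 CPM (-1.21). The median of the regulators was -0.06. In Aged+CF vs Aged 0 of the 205 tested genes of these lists passed the adjusted p in edgeR, while by the unadjusted p 15 were lower and 6 higher (4.05% and 3.91% of all tested genes). By the adjusted p DESeq2 called 8 lower and 1 higher and limma-voom 2 lower, against 2.83% and 0.464% of all genes in either direction.

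**Figure D5:**
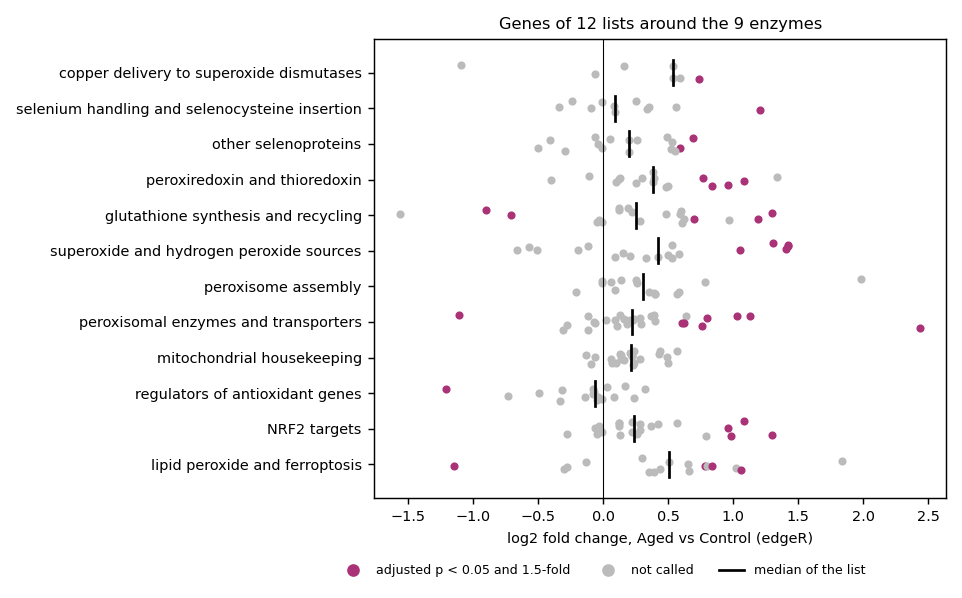
Log2 fold change in Aged vs Control (x axis) of the tested genes of 12 lists (y axis), 1 point per gene, purple where called by the adjusted p, with the median of each list as a black bar. Points are shifted up or down at random for visibility. Medians lie between -0.06 (regulators of antioxidant genes) and 0.54 (copper delivery).

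The genes whose pattern over the 10 ovaries was most like that of each enzyme were found by Pearson's r of log2 CPM among 12162 genes, as a description across groups that differ. Gpx4-ps2 was nearest to Gpx4 (r = 0.992), followed by Ndufc2, a subunit of respiratory complex I (0.988). Nearest to Sod1 were Psmb5, a catalytic proteasome subunit (0.986), and Timm17b, of the mitochondrial import machinery (0.983). Nearest to Sod2 were Hacd3 (0.989) and Comtd1 (0.982), to Sod3 AU021092 (0.972) and Fth1 (0.971), and to Cat Shisa4 (0.987) and the kinase gene Mapk3 (0.985). Gpx1 was most like Rab12 (0.951) and Tmem176b (0.944), and Gpx3 like Ndufaf3, a complex I assembly factor (0.976), and Vti1b (0.965). Gpx7 was most like Stmn1, a microtubule regulator of dividing cells (0.990), and Crabp2, a retinoic acid carrier (0.983), and Gpx8 like Tmem100 (0.969) and Lhfpl2 (0.960).

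Promoter sequences of RefSeq (GRCm38.p6), 250 bases before to 50 after a transcript start, were at hand for 8 of the 9 genes, with 11 starts in all, 4 of them of Gpx4. Letters CCAAT were found on either strand in 7 of the 11, belonging to Cat, Gpx3, Gpx4, Sod1 and Sod2, and in 37.4% of all promoters. The letters GGGCGG, which can overlap other motifs, were in 9 of the 11 and 35.7% of all, the antioxidant response letters TGACNNNGC in that of Sod1 alone and 12.4% of all, and the FoxO letters GTAAACA in 0 and 3.6% of all. A match of letters is no evidence of a bound site. Of the genes called higher in Aged, Cat, Gpx3, Gpx4 and Sod2 had CCAAT matches, Gpx4 not at every start. Gpx1 had 0, and no promoter sequence was at hand for Sod3. Sod1, which was not called, had 1 CCAAT match, and Gpx7 and Gpx8 had 0. A relation of matches to the direction of change was not tested. The promoters of Cat, with 4 CCAAT matches, the most of the 11, and of Gpx7, with 0, are given 5′ to 3′ on the minus strand on which both genes lie, with CCAAT or its reverse complement in capitals. They span chr2:103485104-103485403 and chr4:108406664-108406963.
Cat: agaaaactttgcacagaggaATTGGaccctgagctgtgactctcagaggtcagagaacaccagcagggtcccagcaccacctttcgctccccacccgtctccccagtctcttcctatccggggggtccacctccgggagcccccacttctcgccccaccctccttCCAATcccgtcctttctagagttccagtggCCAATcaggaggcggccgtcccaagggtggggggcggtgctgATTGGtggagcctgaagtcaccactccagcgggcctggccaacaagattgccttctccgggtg
Gpx7: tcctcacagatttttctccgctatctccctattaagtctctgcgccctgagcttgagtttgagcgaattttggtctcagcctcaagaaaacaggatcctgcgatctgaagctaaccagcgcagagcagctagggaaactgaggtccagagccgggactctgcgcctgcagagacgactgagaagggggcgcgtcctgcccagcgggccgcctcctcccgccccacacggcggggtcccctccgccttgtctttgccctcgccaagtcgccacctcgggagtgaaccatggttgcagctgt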

How the data were processed

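RNA of 10 whole ovaries was sequenced. The deposited counts are whole reads per gene made by the authors, whose processing notes name TopHat, Cufflinks 2.1.1 and GRCm38.p4. The counting tool, its strand setting and its treatment of reads that match several genes are not given in the sources used here, so overlapping genes and near-identical copies may share reads. The deposited FPKM equal the count divided by a gene length and the library total, and this length was the sum of distinct exon lengths for 97.1% of the 14767 genes where it could be told. Depth was 15761789 to 21318254 counts per ovary. No pair of ovaries of 1 group agreed within sampling noise (chi-square per degree of freedom of 17.26 or more).

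Counts of all 10 ovaries were fitted in edgeR 4.0.16 (R 4.3.3) by the quasi-likelihood F test with TMM and filterByExpr, which left 18956 of 55487 genes. Fold changes and p-values came from this fit, with Benjamini-Hochberg adjustment over all tested genes, and scripts were tested on simulated data. DESeq2 1.42.0, limma-voom 3.58.1 with sample quality weights, other scaling and filters, the replicate block, fits of the groups compared alone and leaving out each ovary were alternatives. Adding pseudogene counts and changing the gene length were chosen after seeing the data. Genes named beside the 9 enzymes are up to 3 called genes of each list with the largest change and a mean of at least 1 FPKM, and the 2 genes nearest in pattern. The genes and lists were chosen with earlier results of these data known.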

Additional observations from a re-analysis of the deposited data

Results flagged for a closer look

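In 3 of 30 genes examined in the 4 Control ovaries, 1 ovary lay far from the others, with a gap to the nearest ovary that took a larger share of the whole range than Dixon's 95% critical value for 4 samples. For Gpx4 the share was 0.93, with 49.1 CPM in Control replicate 34 against 60.0, 60.4 and 60.8 CPM. For Scly it was 0.90 (10.7 against 7.81, 8.06 and 8.10 CPM), and for Prdx1 it was 0.86 (357 against 409, 416 and 417 CPM). Chance alone gives about 1 such group in 20. Without Control replicate 34 the log2 fold change of Gpx4 in Aged kept its direction and missed the adjusted p in edgeR. The same held without Control replicate 31, 32 or 33.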

How the results depend on the processing

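In Aged vs Control the 7 called enzymes became 4 with no filter on low counts (Sod3, Cat, Gpx1 and Gpx3, with 1670 of all 36618 genes) and 3 with only the groups compared in the fit (Sod3, Cat and Gpx1, with 1440 of 18513), and lay between 2 and 7 when single ovaries were left out. They were 6 with DESeq2 size factors, 7 by the DESeq2 Wald test, 5 by limma-voom and 7 with pseudogene counts added, where 2143, 2761, 2813 and 2096 of all genes were called (14.6% and 14.8% by DESeq2 and limma-voom). The cause of these differences was not tested. In Aged+CF vs Aged the count of 0 became 3 by the DESeq2 Wald test, 2 by limma-voom, 6 by the unadjusted p in edgeR, and 0 to 3 when single ovaries were left out. Over all tested genes edgeR called 1 there, DESeq2 441 and limma-voom 88, and edgeR 556 without Aged replicate 34. Against Control 0 of the 9 were called in Aged+CF under every alternative, and of all tested genes edgeR called 34, DESeq2 528 and limma-voom 508. Deviations from the group means correlated at -0.18 to 0.15 between ovaries with the same replicate number. Ovaries with different numbers were not set beside these, so whether the numbers pair the ovaries cannot be told. With the replicate block 0 of the 9 were called in Aged vs Control, and 80 of all tested genes against 2096.

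Signs turned only where the log2 fold change was near 0 and no call was made. That of Gpx8 in Aged+CF vs Aged was 0.06 by limma-voom and -0.11 to 0.10 without single ovaries. In Aged+CF vs Control without single ovaries Sod1 was at -0.03 to 0.06, Sod2 at -0.15 to 0.15 and Sod3 at -0.03 to 0.07. By limma-voom Sod2 was at -0.04 and Sod3 at -0.001, and under the replicate block Sod3 was at -0.08. Of 459 single-gene values 385 kept direction and call, 51 lost the call, 10 gained it and 13 turned sign. All 51 losses were in Aged vs Control, the only comparison with calls among the 9 enzymes in the main fit. Of 17 alternatives for each enzyme, Gpx7 lost its call in 13, Gpx4 in 12, Sod2 in 10 and Gpx3 in 9. Gpx1 lost it in 4, Sod3 in 2 and Cat in 1. The lowest count of any of the 9 enzymes in an ovary was 434, for Gpx7 in Aged replicate 34.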
